A study of Mus musculus with 6 samples.

Results

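The core hepatocyte transcription factors are a small circle of DNA-binding proteins that hold the hepatocyte gene programme in place. The 9 genes described here are Cebpa, Cebpb, Hnf4a, Nr5a2, Foxa1, Foxa2, Foxa3, Onecut1 and Prox1. They were chosen by name, and every probe set that the array annotation assigned to exactly 1 of these symbols was used. This gave 79 of the 229581 probe sets on the array and 9 of 16277 annotated genes, and all 9 genes lay above the detection floor. RNA of whole liver was hybridised to 6 Affymetrix exon arrays of the mouse, 3 from mice with a hepatocyte knockout of the splicing factor gene Srsf3 (SRSF3HKO) and 3 from wild-type (WT) mice that the labels describe as littermates and as matched in age. All mice were 1 month old and received no treatment. The labels name neither the Cre driver nor the exons removed. They speak of 3 knockout mice, and whether the WT arrays stand for 3 separate mice is not given. The p-values below therefore cover the spread among these 6 arrays, which may in part be technical. In whole liver, less RNA per hepatocyte and fewer hepatocytes cannot be told apart.

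C/EBPα and C/EBPβ are leucine zipper proteins, of which C/EBPα drives metabolic genes of the resting hepatocyte and C/EBPβ responds to inflammation and regeneration. HNF4α and NR5A2 (LRH-1) are nuclear receptors, HNF4α for apolipoproteins, clotting factors and transporters and NR5A2 for bile acid and cholesterol genes. The FOXA proteins open chromatin for other factors early in liver development, ONECUT1 (HNF6) acts in liver and bile duct development, and PROX1 is a homeodomain protein of the early hepatoblast that also restrains bile acid synthesis. These proteins bind to each other's genes and to many of the same enhancers.

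At the level of whole genes, Cebpa fell 2.78-fold in SRSF3HKO liver and was the only factor of the 9 to pass the test. Nr5a2 and Foxa1 were below every WT array on each SRSF3HKO array but did not pass, and neither did Onecut1 and Prox1, whose groups overlapped. Cebpb, Hnf4a, Foxa2 and Foxa3 showed differences smaller than the spread between arrays. The call was thus made for 1 of 9 factors in the lower direction, beside 5.03% of all 11711 genes tested, and for 0 of 9 in the higher direction, beside 6.85%. At an unadjusted p under 0.05, limma gave 5 factors lower and 0 higher. Onecut1, the last of these 5, ranked 2524 by p among the 11711 genes, so at least 2524 genes lay under this threshold. The exact share of all genes under this unadjusted threshold was not counted, here or for the lists below. The 3 SRSF3HKO arrays lay below the 3 WT arrays for 3 of the 9 factors, beside 14% of all genes tested. All 9 means were lower in SRSF3HKO, beside 4991 of the 11711 genes tested. The median change of the factors was -0.64 on the log2 scale against 0.083 over all genes tested. Here and below, the level of a gene is the median over its probe sets of log2(intensity + 16), a change is SRSF3HKO minus WT with its standard error (SE), and a gene or probe set is called at a Benjamini-Hochberg adjusted p under 0.05 from limma.

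**Figure D1:**
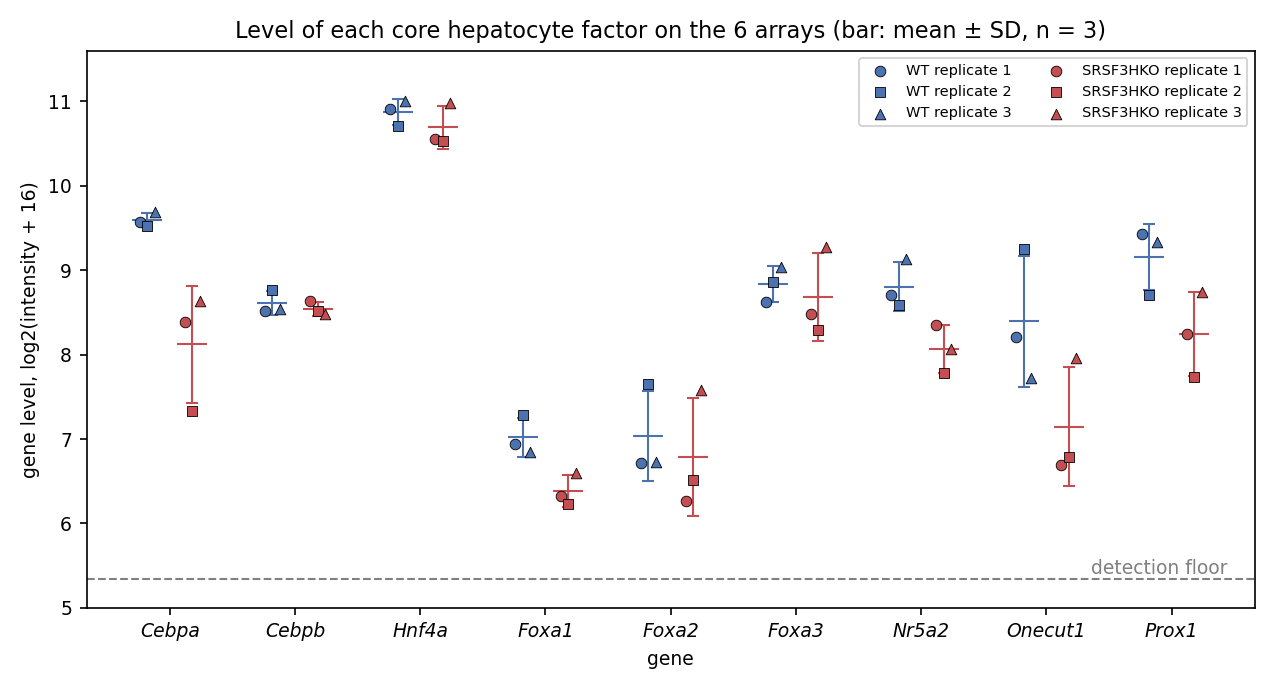
Level of each factor, as log2(intensity + 16), on the 3 WT arrays (blue) and the 3 SRSF3HKO arrays (red), with bars for the mean ± SD (n = 3) and a dashed line for the detection floor of genes at 5.35. The SRSF3HKO arrays lie below all WT arrays for Cebpa, Foxa1 and Nr5a2, and the groups overlap for the other 6 factors.

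The arrays were checked before the factors were compared. The median intensity of an array ranged from 75.3 to 89.6. The targeted gene Srsf3 stood at 9.79, 9.24 and 9.35 on the WT arrays and at 10.30, 9.10 and 9.78 on the SRSF3HKO arrays, a change of 0.26 ± 0.315 (SE; limma adjusted p = 0.625). Of its 14 probe sets, 13 were tested, 6 were called higher and 0 lower, and 3 of the 14 had lower means, down to -1.03. Because the removed exons are not named, these probe sets do not check the labels. The Y-linked gene Eif2s3y was at 8.62 and 8.36 on WT replicates 1 and 2 and at 8.99 on SRSF3HKO replicate 3, and below the floor on the other 3 arrays, so each group held mice with and without a Y-linked signal. Of 13 hepatocyte markers, 11 were measured and all lay above the floor. Their summed level was 126064 to 126989 in WT and 100930 to 118988 in SRSF3HKO, with 1 of the 11 (Fga, fibrinogen alpha) called lower. A sum weighs the brightest markers most, and whether their signal still follows the amount of RNA was not tested. Of the 11, 10 had lower means, and in 5 the SRSF3HKO arrays lay below all WT arrays, beside 14% of all genes tested.

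For the members called at gene or probe set level, the bases just upstream of the outermost RefSeq start site show what the promoter holds. They are given 5′ to 3′ on the strand of the gene, from the RefSeq table of build GRCm38.p6, for Cebpa at chr7:35119043-35119292 (plus strand), Nr5a2 at chr1:136960449-136960698 (minus strand) and Onecut1 at chr9:74861671-74861920 (plus strand). Foxa1 is left out because its window lies within the RefSeq gene. They are in lower case throughout, since capitals were kept for matches to the motifs searched and these windows have none.

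Cebpa: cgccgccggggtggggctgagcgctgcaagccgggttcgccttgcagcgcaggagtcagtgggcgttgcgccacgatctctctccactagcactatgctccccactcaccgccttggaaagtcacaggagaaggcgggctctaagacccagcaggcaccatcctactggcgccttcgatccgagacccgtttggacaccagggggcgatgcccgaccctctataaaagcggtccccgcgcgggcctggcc

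Nr5a2: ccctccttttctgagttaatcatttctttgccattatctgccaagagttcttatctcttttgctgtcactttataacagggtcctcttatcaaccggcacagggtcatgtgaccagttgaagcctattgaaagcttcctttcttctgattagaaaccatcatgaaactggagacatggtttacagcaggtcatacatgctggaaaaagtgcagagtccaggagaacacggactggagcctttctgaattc

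Onecut1: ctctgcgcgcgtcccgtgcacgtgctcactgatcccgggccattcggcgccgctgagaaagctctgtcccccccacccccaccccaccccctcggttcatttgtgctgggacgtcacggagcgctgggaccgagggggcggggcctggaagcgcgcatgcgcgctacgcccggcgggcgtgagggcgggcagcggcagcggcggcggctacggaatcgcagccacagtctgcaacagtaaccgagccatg

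All 9 factors had at least 1 window of 250 bases before a RefSeq start site, 14 windows in all. Not all of these start sites are the outermost, and those of Foxa1 and Hnf4a lie within the RefSeq gene. Distances below are counted from the start site of each window. Both strands were searched for TTGCNNAA (C/EBP), CAAAGTCC (HNF4), TGTTTAC (FOXA), CAAGGTCA (NR5A2) and ATCAAT (ONECUT). Among 32851 windows of the same length, these occurred in 9.56%, 1.2%, 3.17%, 1.33% and 6.72%. A second, inner Nr5a2 window, not printed here, holds a C/EBP match that begins 243 bases before its start site. Hnf4a has an ONECUT match at 59 bases, Foxa1 a FOXA match at 141 bases and Foxa2 an ONECUT match at 213 bases. The 3 windows printed above hold none of these letters. A match is a description of the sequence and was not measured as a binding site.

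Cebpa (gene ID 12606, chr7:35119293-35121928) had levels of 9.58, 9.52 and 9.69 on the WT arrays and of 8.39, 7.34 and 8.63 on the SRSF3HKO arrays. The WT arrays were close together, the SRSF3HKO arrays were all lower, and replicate 2 was the lowest by a wide margin. The mean was 9.60 ± 0.086 (SD, n = 3) in WT and 8.12 ± 0.69 (SD, n = 3) in SRSF3HKO. This is a change of -1.48 ± 0.326 (SE; 95% interval -2.22 to -0.73; limma adjusted p = 0.0263). The call ended without WT replicate 1, WT replicate 2 or WT replicate 3, with the change between -1.51 and -1.43 and the adjusted p between 0.0991 and 0.105. It also ended when probe sets were averaged (-1.12, adjusted p = 0.0626) or joined by median polish (-1.20, 0.0681), and when the fit held a term for the Y-linked signal (-1.38, 0.0604).

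Cebpb (gene ID 12608, chr2:167688915-167690432), the relative induced in inflammation, was at 8.52, 8.77 and 8.53 in WT and at 8.64, 8.51 and 8.48 in SRSF3HKO. The arrays of the groups overlapped within a narrow range. The change was -0.063 ± 0.181 (SE; 95% interval -0.48 to 0.35; limma adjusted p = 0.855), and its sign turned when probe sets were averaged. Within an array, Cebpa minus Cebpb was 1.06, 0.75 and 1.15 in WT and -0.24, -1.18 and 0.15 in SRSF3HKO. The WT and SRSF3HKO values did not overlap, and the difference changed by -1.41 (exact two-sided permutation p = 0.1, which is the smallest that 3 against 3 arrays allow; 0.4 after adjustment over 4 pairs of factors).

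Among the nuclear receptors, Hnf4a (gene ID 15378, chr2:163506811-163572907) was at 10.91, 10.71 and 10.9996 in WT and at 10.56, 10.53 and 10.99 in SRSF3HKO. SRSF3HKO replicates 1 and 2 lay below all WT arrays, whereas replicate 3 was level with the highest. The change was -0.18 ± 0.196 (SE; 95% interval -0.63 to 0.27; limma adjusted p = 0.585), and the interval does not hold a fall as large as that of Cebpa. Nr5a2 (gene ID 26424, chr1:136842562-136960448) was at 8.70, 8.59 and 9.13 in WT and at 8.35, 7.78 and 8.06 in SRSF3HKO. Each SRSF3HKO array lay below each WT array. With a change of -0.74 ± 0.235 (SE; 95% interval -1.28 to -0.21; limma adjusted p = 0.0771), Nr5a2 missed the threshold. Over 14 other settings with all arrays the change ran from -0.81 to -0.65. The limma adjusted p ran from 0.0507 to 0.106, the latter by median polish (-0.65).

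Of the 3 FOXA genes, Foxa1 alone was lower on every SRSF3HKO array than on every WT array. Foxa1 (gene ID 15375, chr12:57540628-57548029) was at 6.94, 7.28 and 6.84 in WT and at 6.32, 6.23 and 6.59 in SRSF3HKO. The change was -0.64 ± 0.203 (SE; 95% interval -1.10 to -0.17; limma adjusted p = 0.0776). It was called when probe sets were averaged (-0.74, adjusted p = 0.0366) or joined by median polish (-0.70, 0.0480). Foxa2 (gene ID 15376, chr2:148042877-148046969) was at 6.72, 7.65 and 6.73 in WT and at 6.27, 6.51 and 7.58 in SRSF3HKO. WT replicate 2 and SRSF3HKO replicate 3 stood far above the other arrays, and the change of -0.25 ± 0.391 (SE; 95% interval -1.14 to 0.65; limma adjusted p = 0.724) turned to 0.062 without WT replicate 2. Foxa3 (gene ID 15377, chr7:19013283-19023539), a FOXA gene of the adult liver with a role in glucose control, was at 8.62, 8.86 and 9.04 in WT and at 8.48, 8.30 and 9.27 in SRSF3HKO. SRSF3HKO replicate 3 was the highest of all 6 arrays and the other SRSF3HKO arrays were the lowest, for a change of -0.15 ± 0.28 (SE; 95% interval -0.80 to 0.49; limma adjusted p = 0.761). The within-array differences between FOXA genes overlapped between groups, with changes of -0.39 for Foxa1 minus Foxa2, -0.48 for Foxa1 minus Foxa3 and -0.092 for Foxa2 minus Foxa3 (exact permutation p = 0.4, 0.3 and 1). With averaged probe sets or median polish, Foxa1 minus Foxa2 and Foxa1 minus Foxa3 separated the groups, with changes of -0.39 and -0.62 when averaged and of -0.36 and -0.61 by median polish (exact permutation p = 0.1 each, the smallest possible). Whether the FOXA genes changed unequally cannot be told from 3 against 3 arrays by this test.

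Onecut1 (gene ID 15379, chr9:74861921-74889648) was at 8.21, 9.25 and 7.73 in WT and at 6.69, 6.79 and 7.96 in SRSF3HKO. SRSF3HKO replicates 1 and 2 lay well below the lowest WT array, while replicate 3 lay between WT replicates 3 and 1. The change of -1.25 ± 0.454 (SE; 95% interval -2.29 to -0.21; limma adjusted p = 0.113) was close in size to that of Cebpa, with a wider spread in WT. Prox1 (gene ID 19130, chr1:190118035-190170827) was at 9.43, 8.70 and 9.33 in WT and at 8.25, 7.74 and 8.74 in SRSF3HKO. SRSF3HKO replicate 3 was just above WT replicate 2, and all other SRSF3HKO arrays were below WT. The change was -0.91 ± 0.307 (SE; 95% interval -1.62 to -0.21; limma adjusted p = 0.0906). Over 14 other settings with all arrays it ran from -0.98 to -0.64. The limma adjusted p ran from 0.0556 to 0.209, the latter by median polish (-0.64).

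Across the 9 factors, the arrays of SRSF3HKO did not shift equally. Taken against the WT mean of each factor, the median deviation was -0.70 on SRSF3HKO replicate 1, -0.79 on replicate 2 and -0.41 on replicate 3. Replicate 1 was below the WT mean for 8 of the 9 factors, replicate 2 for 9 and replicate 3 for 6. SRSF3HKO replicate 3 is also the only SRSF3HKO array with the Y-linked signal. Set against WT arrays 1 and 2, which share that signal, it was lower for 6 of the 9 factors, with -0.92 for Cebpa, -0.77 for Onecut1, -0.58 for Nr5a2 and -0.52 for Foxa1, but higher for Foxa3 (0.53), Foxa2 (0.40) and Hnf4a (0.18). Replicates 1 and 2 against WT replicate 3, the arrays without the signal, were lower for 8 of 9, with -1.83 for Cebpa, -1.34 for Prox1, -1.07 for Nr5a2, -0.99 for Onecut1 and -0.65 for Foxa3. Each of these splits has 1 array on one side, so its values are given without a test of their own. The joint fit over all 6 arrays is the one with a term for the Y-linked signal given above for Cebpa. Cebpa, Nr5a2, Onecut1, Foxa1 and Prox1 were lower in both.

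**Figure D2:**
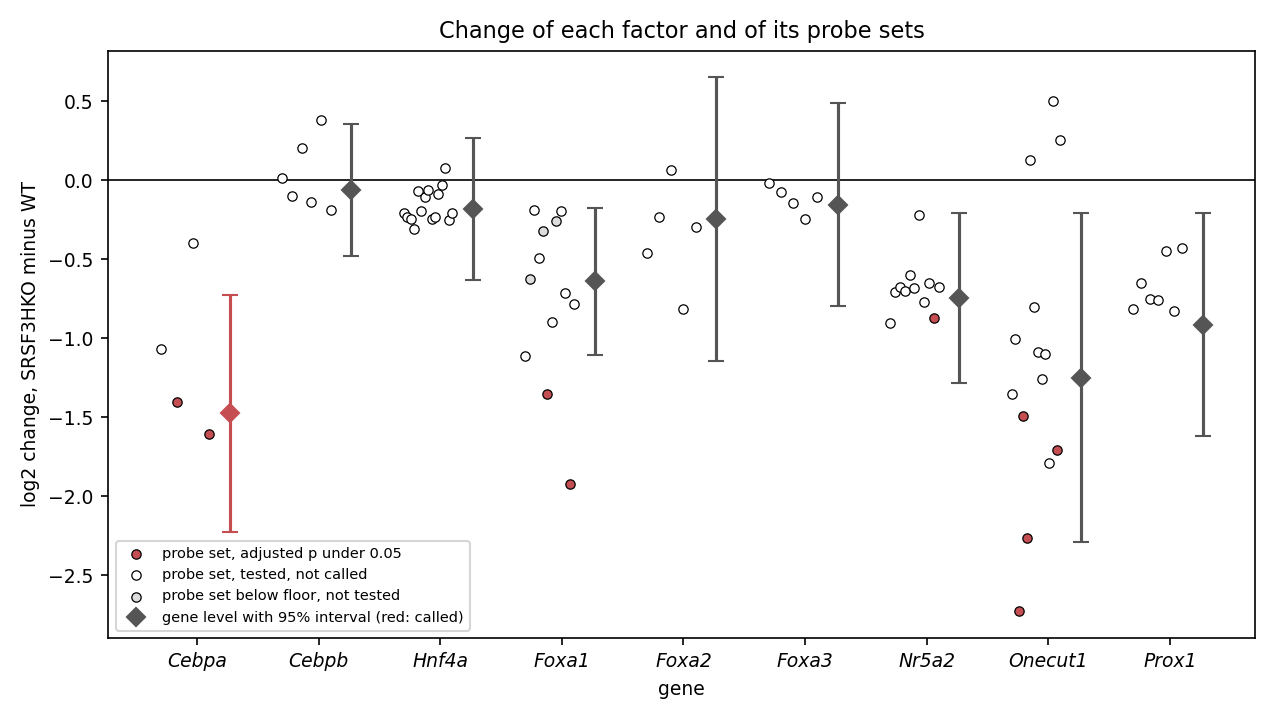
Log2 change, SRSF3HKO minus WT, of each factor (diamonds, with the 95% interval of the limma fit; red if called) and of its single probe sets (circles; red if called, grey if not tested). All 4 Cebpa probe sets and all 11 Nr5a2 probe sets lie below 0, whereas the 14 Onecut1 probe sets run from -2.73 to 0.50.

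An exon array reads a gene with several separate probe sets. Of the 79 probe sets, 76 were above the floor of 5.63 and tested, 71 had a lower mean in SRSF3HKO and 8 a higher one. Called lower were 9 of the 76, beside 4.32% of all 157764 probe sets tested, and called higher 0, beside 4.73%. At an unadjusted p under 0.05, limma gave 24 lower and 0 higher. The share of all probe sets under that threshold was not counted, so nothing is read from the 24. For 23 of the 76 the SRSF3HKO arrays lay below all WT arrays, beside 13.5% of all probe sets tested. Probe sets of 1 gene read the same RNA and are not independent, and the exons they read are not placed here. The 9 called were 4 of Onecut1, 2 of Cebpa, 2 of Foxa1 and 1 of Nr5a2. The call of 1 of them, Onecut1 probe set 4438174, held when any one array was left out. The other 8 ended without WT replicate 1 or without WT replicate 2, 5 without WT replicate 3, 4 without SRSF3HKO replicate 1, 1 without replicate 2 and 2 without replicate 3.

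In Cebpa, all 4 probe sets had lower means. Probe set 5581531 read intensities of 672, 673 and 692 in WT and of 239, 120 and 330 in SRSF3HKO, a change of -1.60 ± 0.329 (SE; limma adjusted p = 0.0207). Probe set 5366814 read 831, 768 and 947 against 427, 155 and 440 (-1.40, adjusted p = 0.0468). The brightest, probe set 4491082, read 2142, 2108 and 2725 against 1327, 606 and 1609. Its groups did not overlap, but it was not called (-1.07, adjusted p = 0.0817). Probe set 5469863 had the smallest change of the 4, with 254, 190 and 360 against 208, 136 and 252, and its groups overlapped (-0.40, adjusted p = 0.457). Across 3 of the 4 probe sets the SRSF3HKO arrays were below WT without overlap, and SRSF3HKO replicate 2 was the lowest array on each of the 4.

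All 11 probe sets of Nr5a2 had lower means, between -0.91 and -0.22, and in 6 the groups did not overlap. The 1 called, probe set 5461346, read 427, 368 and 489 in WT and 214, 228 and 234 in SRSF3HKO (-0.87 ± 0.214 SE; limma adjusted p = 0.0383). Prox1 was as even, with 7 of 7 means lower, between -0.83 and -0.43, 2 without overlap and 0 called. The gene level change of Prox1 (-0.91) is larger than that of any single probe set because a median is taken on each array, and the middle probe set differs between arrays.

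Foxa1 had 12 probe sets, all with lower means, and 9 were tested. Those under the floor still entered the gene level. In 5 the groups did not overlap. The brightest, probe set 5070162, read 2612, 2470 and 2667 in WT and 779, 3095 and 1082 in SRSF3HKO. There SRSF3HKO replicate 2 lay above all WT arrays (-0.90, limma adjusted p = 0.225). Probe set 5437776 read 117, 160 and 122 in WT and 40.2, 26.9 and 8.6 in SRSF3HKO. The SRSF3HKO mean lay under the floor of probe sets, an intensity of 33.4, and the signal was at least 2.99-fold lower (measured change -1.92; limma adjusted p = 0.0119). Probe set 4816216 read 270, 427 and 223 against 80.8, 97.9 and 148 (-1.36, adjusted p = 0.0296). On both, the brightest SRSF3HKO array was dimmer than the dimmest WT array. The changes of Hnf4a probe sets were small, with 14 of 15 means lower but none past -0.31 and 0 without overlap. Changes ran from -0.82 to 0.062 over the 5 probe sets of Foxa2, from -0.24 to -0.016 over the 5 of Foxa3 and from -0.19 to 0.38 over the 6 of Cebpb, with 0 called in each.

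The probe sets of Onecut1 did not all point one way. In 11 of its 14 probe sets the mean was lower, by -2.73 to -0.80, and in 3 it was higher, by 0.13 to 0.50. The lowest adjusted p of the 76 tested belonged to probe set 4438174, which read 302, 371 and 170 on WT arrays and 31.2, 30.5 and 20 on SRSF3HKO arrays. All 3 SRSF3HKO readings lay under the floor, and the signal was at least 5.75-fold lower (measured change -2.73; limma adjusted p = 0.00219). Probe sets 4574863 (261, 356 and 143 against 27.5, 27.5 and 62.1; -2.26, adjusted p = 0.00903) and 5294292 (-1.71, 0.0446) were also called lower. Probe set 4455108 was called too, at least 2.31-fold lower with a SRSF3HKO mean under the floor (measured change -1.49, adjusted p = 0.0352). In contrast, probe set 4721727 read 2009, 2013 and 2215 in WT and 1959, 2708 and 2203 in SRSF3HKO (0.13, adjusted p = 0.718). Probe sets 4950282 and 5348383 had changes of 0.50 and 0.25 with overlapping groups. These 3 were singled out after their values were seen, and so were the following block levels. The geometric mean over the 11 lower probe sets was 225, 537 and 184 in WT and 67.5, 72.5 and 142 in SRSF3HKO. Over the 3 others it was 777, 868 and 1012 in WT and 951, 1079 and 1238 in SRSF3HKO. WT replicate 2 stood out as bright in the first block and not in the second.

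**Figure D3:**
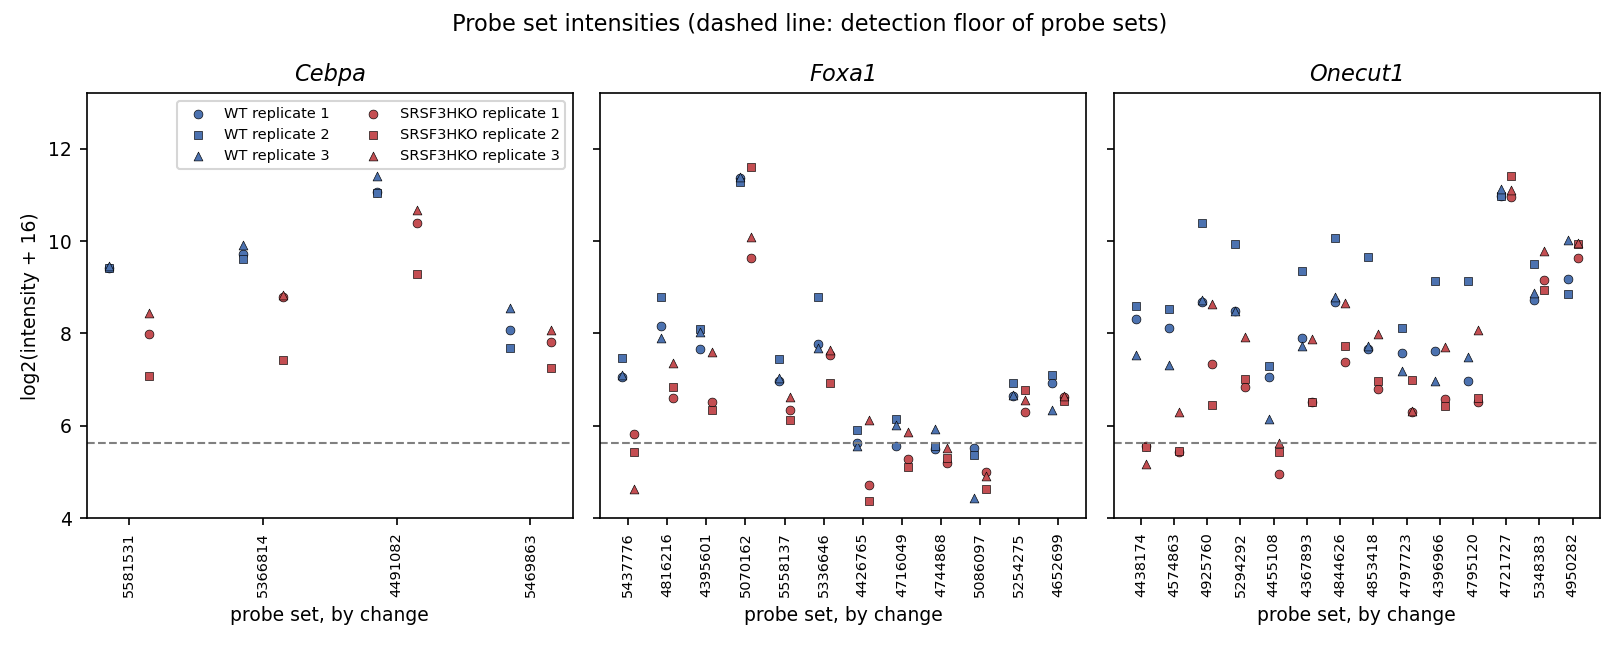
Intensities, as log2(intensity + 16), of all probe sets of Cebpa, Foxa1 and Onecut1 on the 3 WT arrays (blue) and 3 SRSF3HKO arrays (red), ordered by their change from the most negative on the left, with a dashed line at the probe set floor of 5.63. In Onecut1 the 3 probe sets at the right, 4721727, 5348383 and 4950282, overlap between the groups, while the 2 at the left, 4438174 and 4574863, are separated.

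Since the knocked-out gene encodes a splicing factor, the use of single probe sets relative to the rest of their gene was tested. This reads unequal signal among probe sets and not splicing itself. Genes were not sorted by their number of exons, and the 76 probe sets include 4 of Cebpa and 6 of Cebpb. Which of the 76 could show altered splicing was not determined. With limma's diffSplice, 0 of the 76 probe sets were called, beside 0.662% of the 142800 probe sets that entered this test (from genes where 3 or more passed the floor). With a splicing index, the probe set minus its gene level on each array, 0 were called, beside 0.0168%. At an unadjusted p under 0.05 there were 7 by diffSplice and 16 by the splicing index. The share of all probe sets under it was not counted, so nothing is read from these counts. The lowest adjusted p was 0.176 by diffSplice, for Foxa1 probe set 5437776, and 0.170 by the splicing index, for Onecut1 probe set 5348383. Within Onecut1, diffSplice gave relative changes of 1.75 for probe set 4950282 and -1.73 for probe set 4438174 (limma adjusted p = 0.210 and 0.222). With array weights 2 probe sets were called, Foxa1 5437776 (adjusted p = 0.0103) and Onecut1 4438174 (0.0354), and with a pseudocount of 1 only the Foxa1 probe set was (0.0499). Unequal movement of the Onecut1 probe sets was thus not established by the test as fitted.

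The 5 genes with levels most like those of Cebpa over the 6 arrays, by the root mean square difference of log2 values centred on the WT mean, were Idh1 (0.104), Dpp4 (0.107), Abcb11 (0.110), Echdc3 (0.124) and H2-Q10 (0.125). Each was lowest on SRSF3HKO replicate 2, as Cebpa was. Idh1, the cytosolic isocitrate dehydrogenase, stood at 12.25, 11.94 and 12.25 in WT and at 11.10, 9.93 and 11.13 in SRSF3HKO. The 5 changes ran from -1.56 for Echdc3 to -1.40 for Abcb11. These genes were found by their likeness to Cebpa, so their fall is no separate result.

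Other transcription factors of the liver were read from the same fit. Of 16 tested, 5 were called lower, beside 5.03% of all genes tested, and 0 higher, beside 6.85%. These shares also stand beside the counts of each list that follows. In this list 14 means were lower, with a median change of -0.42. At an unadjusted p under 0.05 there were 6 lower and 0 higher. Atf5, a stress-responsive factor abundant in liver, fell from 9.36, 9.38 and 9.34 to 8.02, 7.47 and 7.81 (-1.59 ± 0.202 SE; limma adjusted p = 0.00383) with no overlap. The glucocorticoid receptor Nr3c1 (-0.76, adjusted p = 0.0320), the retinoid X receptor Rxra (-0.77, 0.0349) and the fatty acid receptor Ppara (-0.93, 0.0404) fell as well. The fifth was the homeobox gene Hhex (-1.32, adjusted p = 0.0439), named after its value was seen. Once the Y-linked signal entered the fit, 1 call was left in this list. Onecut2, the paralog of Onecut1, was at 7.02, 7.50 and 7.59 in WT and at 7.48, 6.73 and 7.70 in SRSF3HKO (-0.068, adjusted p = 0.905), with overlapping groups and a sign that turned with array weights. Hnf4g and Nr2f1 were below the floor on average.

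Among 5 relatives and regulators of the C/EBP proteins, Ddit3 was the only one called. It encodes CHOP, which pairs with C/EBP proteins and blocks their binding to usual sites, and it rose from 6.05, 6.20 and 6.08 to 7.28, 6.96 and 7.81 (1.24 ± 0.24 SE; limma adjusted p = 0.0172). All 3 SRSF3HKO arrays were above all WT arrays, the reverse of Cebpa. Cebpg, another pairing partner, changed by 0.18 (adjusted p = 0.604) and Trib1, which targets C/EBPα protein for degradation, by 0.34 (0.435). Cebpd is not analysed here. Of 9 coregulators, 0 were called, with 1 higher and 0 lower at an unadjusted p under 0.05 in limma and a median change of 0.062. Nr0b2 (SHP), which represses NR5A2 and HNF4α, varied among arrays of both groups, with 8.85, 7.75 and 8.89 against 8.80, 7.19 and 9.69 (0.066 ± 0.595 SE; adjusted p = 0.957). Ppargc1a, a coactivator of HNF4α in fasting, was at 6.44, 6.38 and 7.40 against 7.58, 8.49 and 7.28 (1.04 ± 0.381 SE; adjusted p = 0.116), with overlap.

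Known target genes of the factors were described next, from lists that share some genes. Of 17 HNF4α targets, 5 were called lower and 1 higher, beside 5.03% and 6.85% of all genes tested, with a median change of -0.59. In 11 the SRSF3HKO arrays lay below WT, beside 14% of all genes tested. Cyp8b1, the sterol 12α-hydroxylase of bile acid synthesis, fell from 10.01, 9.79 and 10.44 to 6.50, 7.15 and 5.48 (-3.70 ± 0.4 SE; limma adjusted p = 0.00215). Clotting factor gene F11 (-1.66, adjusted p = 0.0133) and the bile acid and drug importer Slco1b2 (-1.64, 0.0202) fell, as did Otc and Baat, a urea cycle enzyme and the bile acid conjugating enzyme, the latter named after its value was seen (-1.38, 0.0491). Apoa4, an apolipoprotein, rose from 9.34, 9.57 and 9.77 to 13.02, 12.47 and 12.31 (3.04 ± 0.231 SE; adjusted p = 0.000532).

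Of 7 C/EBPα targets tested, Otc was called lower (-1.51, limma adjusted p = 0.0304) and Hamp higher, and the median change was -0.023. Hamp, which encodes the iron hormone hepcidin, was at 10.15, 10.91 and 9.88 in WT and at 11.84, 11.28 and 12.63 in SRSF3HKO (1.60 ± 0.379 SE; adjusted p = 0.0331). The level of Hamp rests on 1 probe set. Albumin was among those not called, with a change of -0.023. Its WT mean was 13.90, beside 13.91 for Ttr and 13.91 for Trf. Whether signals this bright still follow the amount of RNA was not tested. Of 8 C/EBPβ targets, acute phase genes together with Pck1, 1 was called lower and 0 higher. The median was -0.40, with 3 lower and 0 higher at an unadjusted p under 0.05. Lcn2 was not called, at 7.32, 7.66 and 8.31 in WT and at 12.84, 8.34 and 8.56 in SRSF3HKO (2.15, limma adjusted p = 0.218). Each SRSF3HKO array lay above all WT arrays, but replicate 1 far more than the others. C3, also not called, lay below all WT arrays on each SRSF3HKO array (-0.41, adjusted p = 0.0969). The 1 called, serum amyloid gene Saa2, lay below the floor on all SRSF3HKO arrays and was at least 2.33-fold lower there (adjusted p = 0.0122). Its level also rests on 1 probe set.

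Of 8 FOXA targets, Afp alone was called, and 0 were called lower, the latter also at an unadjusted p under 0.05. Afp, the fetal liver protein α-fetoprotein, had a WT mean below the floor and stood at 10.96, 10.02 and 7.58 in SRSF3HKO, at least 18-fold higher than WT (limma adjusted p = 0.0125). The median change of this list was -0.080. Of 8 NR5A2 targets, Cyp8b1 and Abcb11 (the bile salt export pump; -1.40, adjusted p = 0.0464) were called lower, Afp and the sterol exporter Abcg5 (0.83, just under the threshold) higher, and the median was 0.095. Of 4 ONECUT1 targets, 0 were called, 2 were lower and 0 higher at an unadjusted p under 0.05, and the median was -0.62. Over all these lists 12 of 59 tested genes were called lower and 5 higher. The calls of Atf5, Apoa4 and Cyp8b1 held when any one array was left out. The other 14 ended without WT replicate 1 or WT replicate 2, 12 without WT replicate 3, 6 without SRSF3HKO replicate 1, 2 without replicate 2 and 6 without replicate 3.

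**Figure D4:**
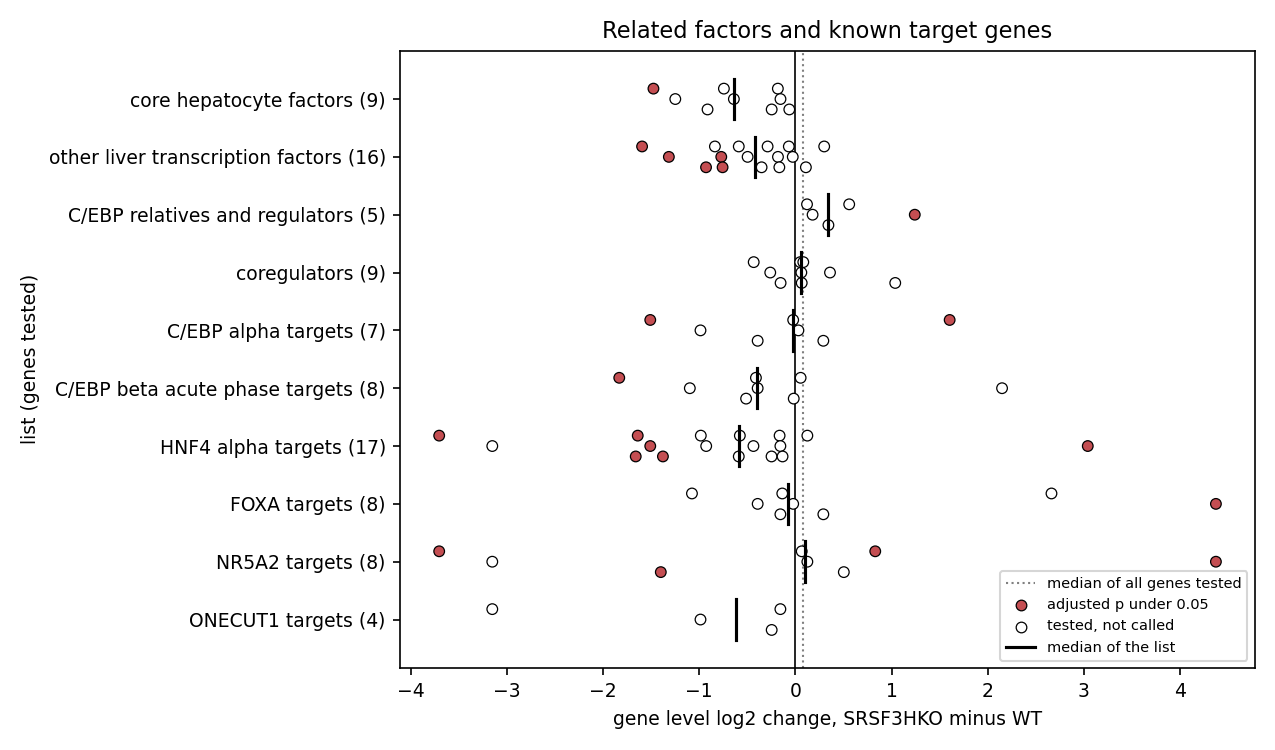
Gene level log2 change, SRSF3HKO minus WT, of the 9 factors and of 9 lists of related factors and target genes, with the number of tested genes in parentheses, red circles for called genes, a bar for the median of each list and a dotted line at the median of all genes tested, 0.083. The factors lie at or left of -0.063, and the HNF4α targets run from -3.70 to 3.04.

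Markers of other cells were read on the same arrays. The summed level of 6 cholangiocyte markers was 497 to 710 in WT and 838 to 2988 in SRSF3HKO, with 0 of 5 tested called and 2 higher at an unadjusted p under 0.05 in limma. Without Spp1 the sum was 189 to 421 in WT and 246 to 483 in SRSF3HKO, with overlap. Onecut1 and the FOXA genes are also made in bile duct cells. For 8 macrophage markers, where Cebpa and Cebpb are expressed too, it was 2724 to 3144 in WT, and 19130, 3079 and 3508 on SRSF3HKO replicates 1, 2 and 3 (1 called higher, Marco). SRSF3HKO replicate 1 stood apart, above all WT arrays for 8 of the 8 markers. Replicate 2 was below all WT arrays for 5 and above them for 3, and replicate 3 was below for 4 and above for 4. Marco, Cd68 and Vsig4 were above all WT arrays on every SRSF3HKO array. Without SRSF3HKO replicate 1 the Cebpa change was -1.61 (limma adjusted p = 0.0299). Of the 6 erythroid markers measured, 3 were below the floor, the sum was 502 to 1043 and 133 to 306, and 1 was called lower (Alas2). Without Alas2 the erythroid sum was 116 to 131 and 89.0 to 107. The 7 adipose markers, of a cell type that uses Cebpa and Cebpb, summed to 335 to 489 and 1889 to 2263. Among them Adipoq and Lep were below the floor and 1 was called higher, Cidec, which was at least 40.6-fold higher. Without Cidec the adipose sum was 329 to 465 in WT and 331 to 448 in SRSF3HKO, with overlap. Of 8 endothelial markers, which belong to a cell type that makes Prox1 in lymphatic vessels, 2 were called lower (Kdr and Flt4), and the sums were 2621 to 3771 and 1454 to 3482. Stellate cell markers summed to 3334 to 4160 and 3589 to 6251 (1 of 8 called lower, Col3a1). At an unadjusted p under 0.05, limma gave 1 lower and 1 higher in this list. The latter was Dcn, the brightest of the 8, which was above all WT arrays on every SRSF3HKO array (0.76, limma adjusted p = 0.0724). Neutrophil, lymphocyte and pancreas markers had 0 called, with 4 of 6, 3 of 7 and 5 of 8 below the floor and 0 in either direction at an unadjusted p under 0.05. Of the 7 markers called, hepatocyte Fga included, Cidec held when any one array was left out. The other 6 ended without any one WT array, and 1 ended without SRSF3HKO replicate 1 (Fga), 1 without replicate 2 (Kdr) and 4 without replicate 3 (Fga, Kdr, Flt4 and Col3a1). Under 13 other settings Marco lost its call in 7, Col3a1 in 5, and Fga and Kdr in 3 each. The part of these cell types in the levels of the factors was not tested.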

How the data were processed

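Genotype came from the labels, and replicate numbers follow sample order. The authors deposited linear intensities of core exon probe sets, summarised with PLIER in Affymetrix Expression Console per the submitters' processing notes. Versions and the background step are not given in the sources used here. Of the probe sets, 208397 had 1 gene in the supplied annotation, 3965 several and 17219 none, and only the first kind entered gene tests. Values were taken as log2(intensity + 16), which understates changes of dim genes, and probe sets of a gene were joined by their median. The floor for testing, on the mean of 6 arrays, was the 90th percentile over 1046 chemosensory receptor genes (olfactory, vomeronasal, taste), at 5.35 for genes and 5.63 for probe sets. SRSF3HKO was compared with WT on all 6 arrays with limma 3.58.1 in R 4.3.3 (eBayes with trend), adjusted over the whole table. The number of arrays limits the precision. A fold against a group under the floor is a lower bound, computed from the floor. Exon usage was tested with diffSplice, and within-array differences with exact permutation tests. Sequences and positions are from RefSeq, GRCm38.p6. The gene level test and diffSplice were also run on simulated data, with noise drawn separately for each gene or probe set. Noise shared by the probe sets of a gene was not simulated.

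The factors and lists were chosen with earlier results of these data known. Named were the 9 factors, Srsf3, up to 4 called genes per list with the lowest adjusted p, paralogs and partners of the factors, the 5 genes most like the factor with the lowest adjusted p, and called probe sets. Alternatives were quantile normalization, median centring, a pseudocount of 1 or 64, other summaries and filters, eBayes without trend and robust, array weights, a covariate for Y-linked signal, a threshold of 0.01 and leaving out each array. Figures used matplotlib 3.10.9.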

Additional observations from a re-analysis of the deposited data

How the results depend on the processing

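With 3 arrays a group, most calls rested on the full set of arrays. Leaving out 1 array gave 0 to 1 called factors, 1 to 10 called probe sets of the factors, 0 for exon usage, 3 to 17 called genes of the other lists and 244 to 2155 over all genes (1391 with all arrays). The Cebpa change ranged from -1.73 to -1.08, and the signs of 3 factors turned, with ranges of -0.11 to 0.018 for Cebpb, -0.64 to 0.062 for Foxa2 and -0.45 to 0.038 for Foxa3. The ranges were -0.27 to 0.22 for Onecut2, -0.50 to 0.75 for Nr0b2, -0.022 to 0.58 for Srsf3 and -0.34 to 0.21 for Foxa2 minus Foxa3. Averaging probe sets gave -1.12 for Cebpa, 0.028 for Cebpb and -0.74 for Foxa1, and median polish -1.20 for Cebpa and -0.70 for Foxa1, so that the 1 factor called was Foxa1 in both. Array weights gave 0.080 for Foxa2, 0.048 for Foxa3, 0.18 for Onecut2, 2157 genes (1265 higher) and 2 probe sets for exon usage, and a pseudocount of 1 gave 1 such probe set. With a covariate for Y-linked signal, Cebpa was at -1.38, with 0 factors, 4 of their probe sets (from 9), 9 listed genes (from 17) and 707 genes called. At an adjusted p under 0.01, Cebpa (-1.48) was not called, and 0 factors, 3 listed genes and 296 genes were. Over the alternatives other than leaving out arrays, calls ranged from 1 to 6 for other liver factors, 0 to 1 for C/EBP relatives, 0 to 3 for C/EBPα, 0 to 1 for C/EBPβ, 2 to 8 for HNF4α, 0 to 1 for FOXA, 1 to 5 for NR5A2 and 0 to 2 for ONECUT1 targets. The cause of these shifts was not tested. Quantile normalization and median centring left all 9 means lower. No paired analysis was possible because the labels give no shared replicate numbers.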
